A study of Mus musculus with 20 samples.

Results

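Molecular chaperones and heat shock proteins were followed in sorted group 2 innate lymphoid cells (ILC2) of the mouse thymus. The members were the genes whose symbols belong to the HSP70, HSP110 and small heat shock protein families (Hspa to Hsph), the HSP90 family, the J-domain families Dnaja, Dnajb and Dnajc, or the chaperonin TRiC (Tcp1 and Cct2 to Cct8). They came to 66 genes, of which 62 stood among the 9973 genes of a treatment experiment and 65 among the 10706 genes of a knockout experiment. The rule uses gene symbols alone. One match, Hspb11, is known as a subunit of the ciliary transport machinery and is given apart from the families. Dnaja1 is not analysed here.

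In the treatment experiment 12 libraries came from wild-type females, 3 from each of 4 groups. Mice received both treatments, irradiation alone at a sublethal dose of 425 rad, recombinant IL-25 (rIL-25, 0.3 µg injected into the thymus) alone, or nothing. All treated samples of both experiments are labelled day 3. Since no group was injected with anything else, rIL-25 and the injection cannot be told apart. The knockout experiment held 8 libraries of irradiated male mice, 4 of Il25 knockout and 4 of Il25 wild-type genotype, with no unirradiated group. The labels do not say how Il25 was inactivated, in which cells, or whether replicates came from separate animals, so p-values measure only the spread between these libraries. Libraries were made by MARS-seq, which counts the 3′ ends of polyadenylated transcripts. Levels are CPM, counts relative to library size after TMM scaling. They are compared within a gene, since tags were not divided by length. A member was called when the adjusted p of edgeR's quasi-likelihood test, over all genes tested in that comparison, was under 0.05.

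Chaperones bind unfolded stretches of other proteins. HSP70 proteins take up clients with the help of J-domain proteins and release them when HSP110 or other exchange factors swap ADP for ATP, while HSP90 matures kinases and steroid receptors, and chaperonins fold proteins inside a closed chamber. Some members are made at all times. Others, such as Hspa1a and Hspa1b, are induced by heat and other stress through the factor HSF1, which binds heat shock elements in their promoters, and their transcripts can also appear when tissue is dissociated.

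The inducible HSP70 genes Hspa1a and Hspa1b are shown first. Both are intronless genes on the minus strand of chromosome 17, at 34969190 to 34972156 and 34956436 to 34959238 in GRCm38 (GENCODE vM21), 9951 bases apart. The promoter windows are those of RefSeq on GRCm38.p6, chr17:34972157-34972406 and chr17:34959239-34959488, minus strand, each the 250 bases before the gene's start. Capitals mark the paired heat shock unit, GAANNTTC or TTCNNGAA, whose first base lies 104 bases before the start in both.
Hspa1a: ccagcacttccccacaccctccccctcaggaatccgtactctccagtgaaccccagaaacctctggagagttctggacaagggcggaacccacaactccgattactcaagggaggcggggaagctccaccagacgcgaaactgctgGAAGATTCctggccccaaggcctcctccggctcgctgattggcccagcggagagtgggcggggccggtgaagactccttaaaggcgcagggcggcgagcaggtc
Hspa1b: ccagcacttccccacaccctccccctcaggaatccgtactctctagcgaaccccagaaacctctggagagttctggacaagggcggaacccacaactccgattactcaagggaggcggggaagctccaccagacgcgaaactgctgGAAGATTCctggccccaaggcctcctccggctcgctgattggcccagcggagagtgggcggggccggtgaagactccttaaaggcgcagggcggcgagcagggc

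These windows were identical at 247 of 250 bases, and the coding sequences at 1915 of 1923. The last 300 bases of the 2 transcripts, where 3′ tags fall, were alike at only 167 positions, and none of the 251 stretches of 50 bases from the Hspa1a end occurred in Hspa1b. Reads from inside the coding sequence could still be assigned to either gene, and how such reads were counted is not given in the sources used here.

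Promoter windows were available for 54 of the 66 members. This paired unit, searched on both strands, lay in 13 of them, 24.1%, against 12.8% of 32851 RefSeq promoters of the same length. A member counted if any of its windows matched, while the 32851 promoters were counted singly, so the shares are not in like units. Among the 13 are Hspa1a and Hspa1b, whose windows are nearly identical, and the neighbours Hspd1 and Hspe1. The form with 3 units, in which a further GAA or TTC follows in alternation after any 2 bases and which always holds a paired unit, was found for Dnajb6, Hspd1 and Hspe1 and in 0.466% of all promoters. The endoplasmic reticulum (ER) stress element, CCAAT and CCACG separated by 9 bases on either strand, was found for Hspa5, Hsp90b1 and Dnajc3 and in 0.113% of all promoters. These matches describe the letters only. They are shown for the mitochondrial chaperonin gene Hspe1 (chr1:55088053-55088082, plus strand), which lies head to head with its neighbour Hspd1, and for the ER genes Hspa5 (chr2:34772019-34772048, plus strand), Hsp90b1 (chr10:86705528-86705557, minus strand) and Dnajc3 (chr14:118937821-118937850, plus strand), with the match in capitals. For Hspe1 the 18 capitals span 2 overlapping matches. Hsp90b1 also has 2 matches, and the one nearest the start is shown.
Hspe1: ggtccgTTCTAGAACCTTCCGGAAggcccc
Hspa5: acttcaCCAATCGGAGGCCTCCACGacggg
Hsp90b1: agagtgCGTGGTGAGGCACGATTGGtgagt
Dnajc3: ccacaaCCAATCAGCGCCAACCACGacccg

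Libraries of the treatment experiment held 495079 to 1460702 counts and those of the knockout experiment 2093288 to 4420831. Members took 1.04% to 1.57% and 1.4% to 1.84% of these counts. The targeted gene Il25 had 0 counts in every Il25 knockout library, against 3, 7, 17 and 10 in Il25 wild-type replicates 1 to 4. The ILC2 gene Gata3 was present in every library, at 164 to 289.8 CPM in the treatment experiment. So were genes of early T cells, among them Dntt at 851.5 to 2370 CPM. Of 8 T cell markers tested, 3 rose after irradiation compared with untreated mice (Cd3d 5.77-fold, Cd3e 2.31-fold and Cd3g 1.88-fold, adjusted p = 2.4e-08, 0.013 and 0.0131) and Dntt fell to 0.449 (adjusted p = 0.0014). These calls were 50% of the T cell markers tested, against 4.02% of all genes. Of 2 NK cell and ILC1 markers tested, the cytotoxic granule gene Gzma rose 2.63-fold (adjusted p = 0.00139). The other, Nkg7, was at 0.685 of the untreated level after irradiation (adjusted p = 0.192). After both treatments it fell to 0.518 of that level (adjusted p = 0.011). In the treatment experiment 14 of 16 ILC2 identity genes summed to 4008 to 4845 CPM after both treatments, 3980 to 5409 after irradiation, 2746 to 3140 after rIL-25 and 2484 to 2988 in untreated mice. These genes moved both ways after irradiation: Thy1, much of the sum at 3380 ± 822 CPM in irradiated mice and 1483 ± 316 CPM in untreated mice, rose with Id2, while Kit and Bcl11b fell to 0.329 and 0.56 of the untreated level. The mast cell gene Cpa3, the 1 of 5 mast cell markers measured, was at 2.151 to 60.95, 28.98 to 63.25, 261.9 to 403.6 and 249.2 to 353.3 CPM in the same order of groups. The 10 myeloid and dendritic cell markers summed to 347 to 396.2, 342.2 to 470.4, 372.5 to 1849 and 316 to 387.2 CPM, with the highest value in rIL-25 replicate 3. In the knockout experiment 9 of 14 T cell markers summed to 2535 to 2991 CPM in Il25 knockout mice and 3093 to 3888 CPM in Il25 wild-type mice, and 8 of 10 myeloid and dendritic cell markers to 298.7 to 394 and 223.2 to 284.7 CPM. Of 14 ILC2 identity genes tested there, 5 rose in Il25 knockout mice and 0 fell, 35.7% against 1.57% of all genes higher. These 14 genes summed to 2552 to 3101 CPM in Il25 knockout mice and 2442 to 3237 CPM in Il25 wild-type mice. The part of such differences in the results below was not tested. In bulk libraries fewer cells of a type and less RNA per cell cannot be told apart.

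Few chaperone genes changed, and the share that did was close to or under that of all genes in most comparisons. Of the 51 members with enough counts to be tested, 0 rose and 2 fell (Hspa1a and Hspa1b) after irradiation compared with untreated mice, 3.92% against 4.02% of all 7482 genes (2.22% higher and 1.8% lower). After both treatments compared with untreated mice 1 rose (Hsp90ab1) and 1 fell (Hsp90aa1), 3.92% against 8.93% of all genes (4.22% higher and 4.7% lower). Compared with irradiated mice, both treatments gave 1 rise (Hspa1b) and 1 fall (Hsp90aa1), 3.92% against 2.51% (0.642% higher and 1.87% lower). Compared with rIL-25, both treatments gave 4 rises (Hsp90ab1, Cct7, Hspa14 and Dnajc24) and 2 falls (Hsp90aa1 and Dnajc6), 11.8% against 15.3% (6.51% higher and 8.75% lower). The test of the interaction, which asks whether irradiation acted differently with and without rIL-25, called 1 member lower (Hsp90aa1), 1.96% against 2.07% of all genes (0.361% higher and 1.71% lower).

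After rIL-25 alone no member was called by edgeR, DESeq2 or limma voom, and neither was any other gene by edgeR (0%). At an unadjusted p under 0.05 edgeR gave 336 genes of 7482, 4.49%, with 1.64% of the 7482 lower, and 2 members, both lower. Comparisons that share a group are not independent of each other: the untreated libraries serve 3 of them, and so do the doubly treated libraries. The median log2 fold change over the members was 0.15 after irradiation, −0.06 after rIL-25 and 0.15 after both treatments, against 0.02, 0.01 and −0.01 over all genes tested, each relative to untreated mice.

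**Figure D1:**
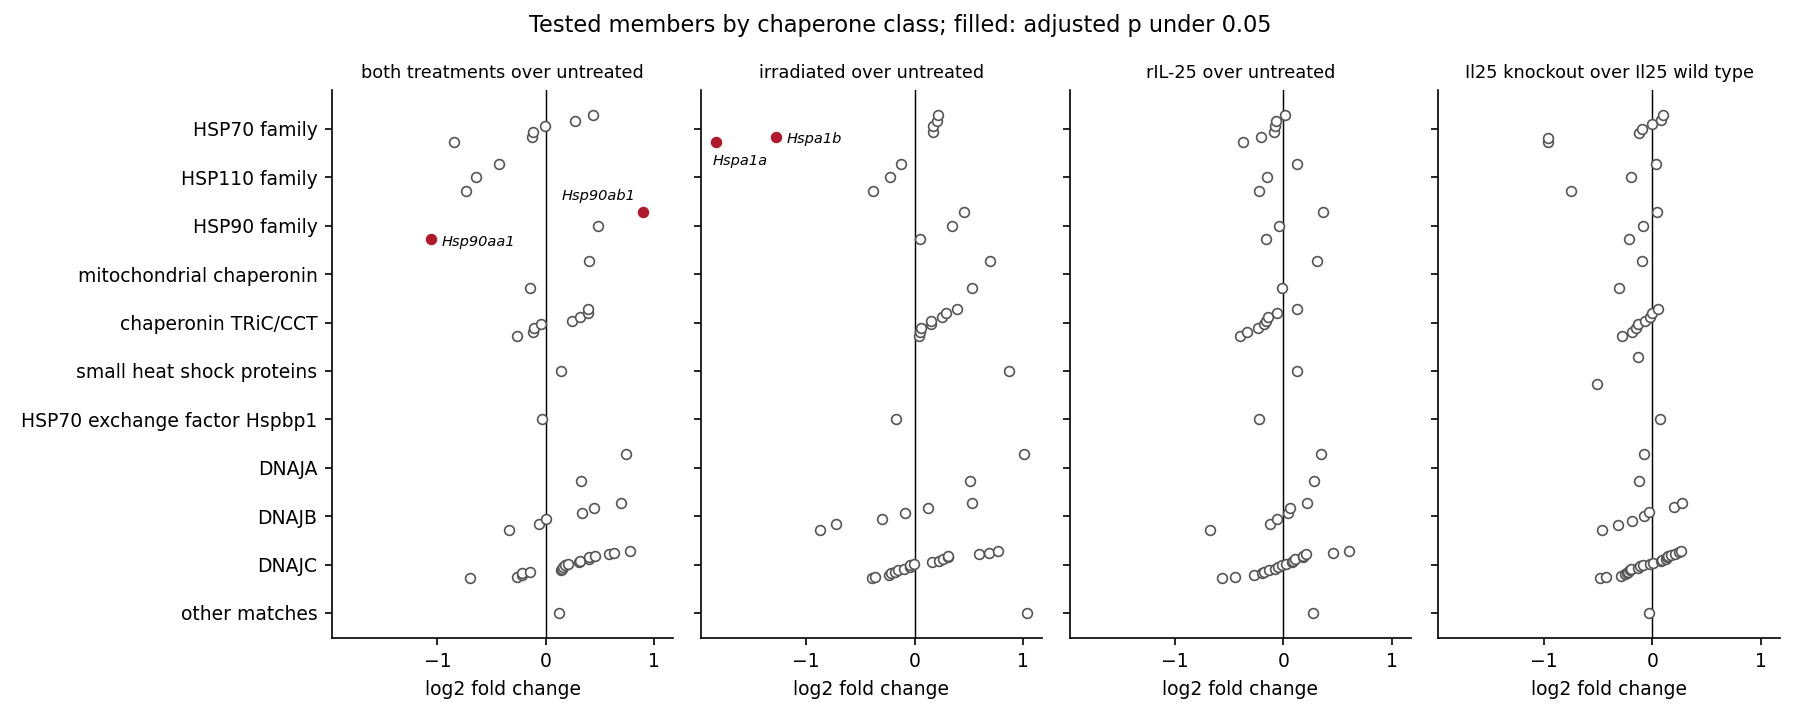
Log2 fold changes of the tested members, 1 point per gene, by chaperone class (vertical axis) in 4 comparisons, with filled red points for adjusted p under 0.05. After both treatments Hsp90aa1 lies at −1.06 and Hsp90ab1 at 0.90, after irradiation Hspa1a and Hspa1b lie at −1.83 and −1.28, and no point is filled after rIL-25 or in Il25 knockout mice.

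Both inducible HSP70 genes fell after irradiation alone. Hspa1a was at 32.4, 54.8 and 20.1 CPM in irradiated replicates 1 to 3, against 91.2, 229 and 66.6 CPM in untreated mice. The groups did not overlap, and untreated replicate 2 was the highest of all 12 libraries. Hspa1a fell to 0.282 of the untreated level (log2 −1.83 ± 0.39 SE, adjusted p = 0.00922). Without untreated replicate 2 the change was −1.14 on the log2 scale with an adjusted p of 0.0496. The call was lost without irradiated replicate 1 (adjusted p = 0.0528) or 3 (0.0601).

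Hspa1b was at 38.9, 94.0 and 44.6 CPM in irradiated replicates 1 to 3, against 132, 183 and 115 CPM in untreated mice. Here too every irradiated library was below every untreated one. Hspa1b fell to 0.412 of the untreated level (log2 −1.28 ± 0.31, adjusted p = 0.0192), and leaving out untreated replicate 2 (adjusted p = 0.0646) or irradiated replicate 1 (0.127) or 3 (0.102) ended the call. With the counts of both genes summed, the fall was 1.52 on the log2 scale (adjusted p = 0.00573).

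After both treatments the pair was nearer to the untreated level than after irradiation alone, more closely for Hspa1b than for Hspa1a. Hspa1b was at 110, 151 and 131 CPM in doubly treated replicates 1 to 3, and the lowest of these was above the highest irradiated library. It rose 2.22-fold over irradiation alone (log2 1.15 ± 0.31, adjusted p = 0.0471), a call that was lost in 8 of the 12 fits with 1 library left out. It held only without untreated replicate 2, rIL-25 replicate 2 or 3, or irradiated replicate 2. The lost calls had adjusted p-values of 0.0528 to 0.229, the summed counts of both genes gave 0.0531, and a fit of only the 2 groups gave 0.0643. Hspa1a was at 84.5, 77.6 and 55.9 CPM after both treatments, each above its 3 irradiated libraries (20.1 to 54.8 CPM), with an adjusted p of 0.212. Relative to untreated mice its log2 fold change was −0.85 (adjusted p = 0.124), called only without untreated replicate 3 (0.0419). Relative to rIL-25 it was −0.765 (adjusted p = 0.128), called with only the 2 groups in the fit (0.0338) or without untreated replicate 2 (0.0461). The interaction was not called for Hspa1b (1.52, adjusted p = 0.0552). DESeq2 (adjusted p = 0.0213), limma voom (0.00699) and the replicate number as a block (0.00923) did call it, and so did 3 of the 12 fits with 1 library left out, whose adjusted p-values ran from 0.0107 to 0.17. The summed counts of both genes did not give a called interaction (1.33, adjusted p = 0.0897).

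With rIL-25 alone Hspa1a was at 116, 118 and 130 CPM and Hspa1b at 101, 149 and 76.3 CPM. These values lay within the untreated range for Hspa1a, while rIL-25 replicates 1 and 3 were below every untreated library for Hspa1b. Neither was called.

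Immediate early genes, which tissue dissociation can also induce, are given beside these values. Of 13 tested, 1 fell after irradiation, 7.69% against 4.02% of all genes called. This gene, Jun, was at 16.6 ± 11.5 CPM in irradiated mice and 60.8 ± 13.6 CPM in untreated mice (SD, n = 3 each, adjusted p = 0.0133). After both treatments compared with untreated mice Jun was lower as well (22.8 ± 9.58 CPM in doubly treated mice, adjusted p = 0.0146), and Junb and Klf2 rose 1.82-fold and 2.54-fold (adjusted p = 0.0349 and 0.0238). These 3 were 23.1% of the 13, against 8.93% of all genes. All 16 listed genes were in the table, and they summed to 527.8 to 800.8 CPM after both treatments, 358.4 to 491.3 after irradiation, 494.6 to 519.3 after rIL-25 and 460.3 to 504.4 in untreated mice. Their part in the Hspa1a and Hspa1b values was not tested.

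**Figure D2:**
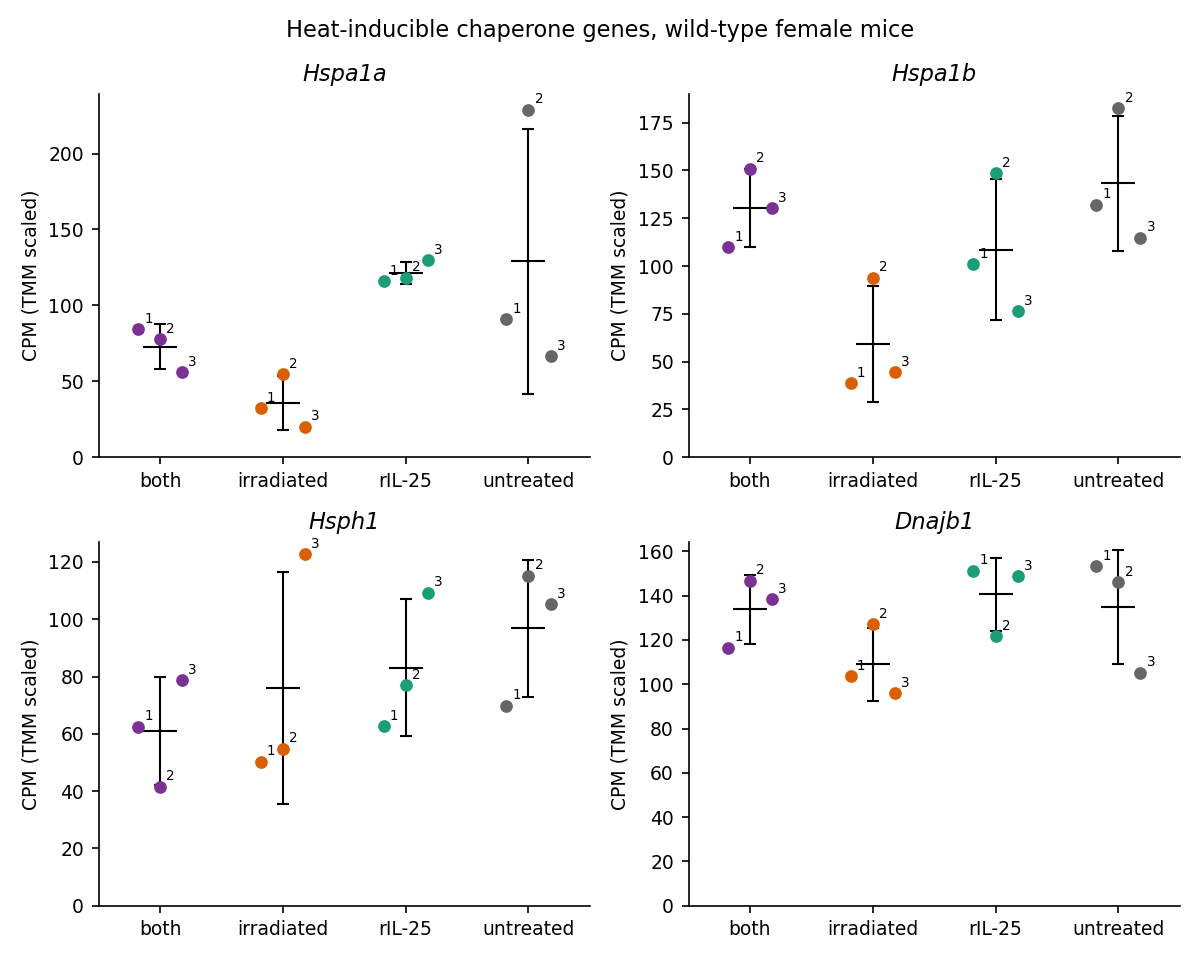
CPM of Hspa1a, Hspa1b, Hsph1 and Dnajb1 in each library of the treatment experiment, with the replicate number beside each point and bars for mean ± SD (n = 3). For Hspa1a and Hspa1b all 3 irradiated libraries lie below the 3 doubly treated and the 3 untreated ones, while Hsph1 and Dnajb1 overlap between all groups.

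Of the 5 heat-inducible cytosolic genes tested, 4 lay below 0 on the log2 scale after irradiation (median −0.38), as did 3653 of all 7482 genes. The 4 were the pair itself, Hsph1 and Dnajb1, while Hsp90aa1 lay above 0 at 0.35. Besides the pair none was called in that comparison. Hsph1, an HSP110 exchange factor that works with HSP70, was at 62.5, 41.6 and 78.9 CPM after both treatments, 50.3, 54.8 and 123 after irradiation, 62.7, 77.1 and 109 after rIL-25, and 69.9, 115 and 105 in untreated mice. The groups overlapped throughout, and irradiated replicate 3 was the highest of all libraries. The log2 fold change after irradiation was −0.38 ± 0.32 (adjusted p = 0.563). Dnajb1, the J-domain partner of inducible HSP70, averaged 134 ± 15.6 CPM after both treatments, 109 ± 16.3 after irradiation, 141 ± 16.4 after rIL-25 and 135 ± 26 in untreated mice (SD, n = 3), and was not called in any comparison (−0.30 ± 0.21 on the log2 scale after irradiation, adjusted p = 0.478). Whether these genes differed from the pair was not tested. The small heat shock protein gene Hspb1 had too few counts to be tested, with 0 to 19.1 CPM over the 12 libraries.

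Constitutive HSP70 genes other than Hspa14 were not called in any comparison. Hspa8, the main cytosolic form, averaged 2096 ± 209 CPM after both treatments, 2429 ± 407 after irradiation, 2002 ± 178 after rIL-25 and 2105 ± 404 in untreated mice. The mitochondrial form Hspa9 averaged 183 ± 19.5, 225 ± 34.6, 189 ± 6 and 200 ± 46.3 CPM, and the ER form Hspa5 268 ± 53.3, 257 ± 69.4, 224 ± 16.2 and 223 ± 24.0 CPM, in the same order of groups. The exception, Hspa14, works at the ribosome as part of a complex that receives new chains. It was at 210, 170 and 215 CPM in doubly treated mice, against 109, 124 and 150 CPM after rIL-25, with no overlap. The rise was 1.56-fold (log2 0.64 ± 0.20, adjusted p = 0.0302). The call was lost without rIL-25 replicate 1 (adjusted p = 0.138) or 2 (0.0709) or doubly treated replicate 1 (0.0649) or 3 (0.125).

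HSP110 genes were not called in any comparison. Besides Hsph1, Hspa4 averaged 48.1 ± 9.46 CPM after both treatments, 60.3 ± 0.349 after irradiation, 59.5 ± 12.5 after rIL-25 and 65.8 ± 14.8 in untreated mice. Hspa4l, a testis-rich relative, was at 5.02 to 18.3 CPM over the 12 libraries. The nucleotide exchange factor gene Hspbp1 averaged 202 ± 30.4, 183 ± 38.7, 176 ± 15.8 and 206 ± 63.6 CPM in the same order of groups, also uncalled.

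The 2 cytosolic HSP90 genes moved in opposite directions in doubly treated mice. Hsp90aa1, the stress-inducible form (chromosome 12, 110690605 to 110702728, GRCm38), was at 20.3, 41.6 and 22.2 CPM after both treatments, 61.6, 84.2 and 75.8 after irradiation, 66.8, 74.4 and 82.6 after rIL-25, and 48.6, 70.2 and 54.5 in untreated mice. All 3 doubly treated libraries were below the other 9, and the other groups overlapped. Hsp90aa1 fell to 0.371 of the rIL-25 level (log2 −1.43 ± 0.27, adjusted p = 0.00151), called in each of the 12 fits with 1 library left out. It fell to 0.377 of the irradiated level (log2 −1.41 ± 0.29, adjusted p = 0.00962), a call lost without doubly treated replicate 3 (adjusted p = 0.098).

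Relative to untreated mice Hsp90aa1 fell to 0.479 after both treatments (log2 −1.06 ± 0.28, adjusted p = 0.0205). That call was lost without untreated replicate 2 (adjusted p = 0.105) or doubly treated replicate 1 (0.0733) or 3 (0.145), and with only the 2 groups in the fit (0.051). Hsp90aa1 was not called after either single treatment, and the interaction itself was called at −1.78 ± 0.38 on the log2 scale (adjusted p = 0.0157). It was lost without untreated replicate 1 (adjusted p = 0.0775) or 3 (0.0623) or doubly treated replicate 3 (0.0743).

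Hsp90ab1, the constitutive form (chromosome 17, 45567775 to 45573271), was at 3773, 2656 and 3497 CPM after both treatments, 2887, 1977 and 2446 after irradiation, 1340, 1650 and 1769 after rIL-25, and 1987, 1462 and 1874 in untreated mice. Every doubly treated library was above every rIL-25 and untreated library, and 2 of the irradiated ones were too. Hsp90ab1 rose 1.86-fold over untreated mice (log2 0.90 ± 0.20, adjusted p = 0.00659) and 2.09-fold over rIL-25 (log2 1.06 ± 0.20, adjusted p = 0.00139), each called in all 12 fits with 1 library left out. The difference from irradiated mice (0.44, adjusted p = 0.258) and that of irradiated from untreated mice (0.46, adjusted p = 0.206) were not called.

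As a share of the counts of both genes, Hsp90aa1 took 0.535%, 1.54% and 0.631% in doubly treated replicates 1 to 3, 2.09%, 4.08% and 3.01% after irradiation, 4.75%, 4.31% and 4.46% after rIL-25, and 2.39%, 4.58% and 2.82% in untreated mice. The shares of the doubly treated libraries were the 3 lowest of the 12. Their exact 95% binomial intervals reached from 0.276% to 2.19%, and those of the other 9 libraries from 1.48% to 6.23%, so that doubly treated replicate 2 (1.04% to 2.19%) overlapped some of them. Intervals cover counting error only.

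**Figure D3:**
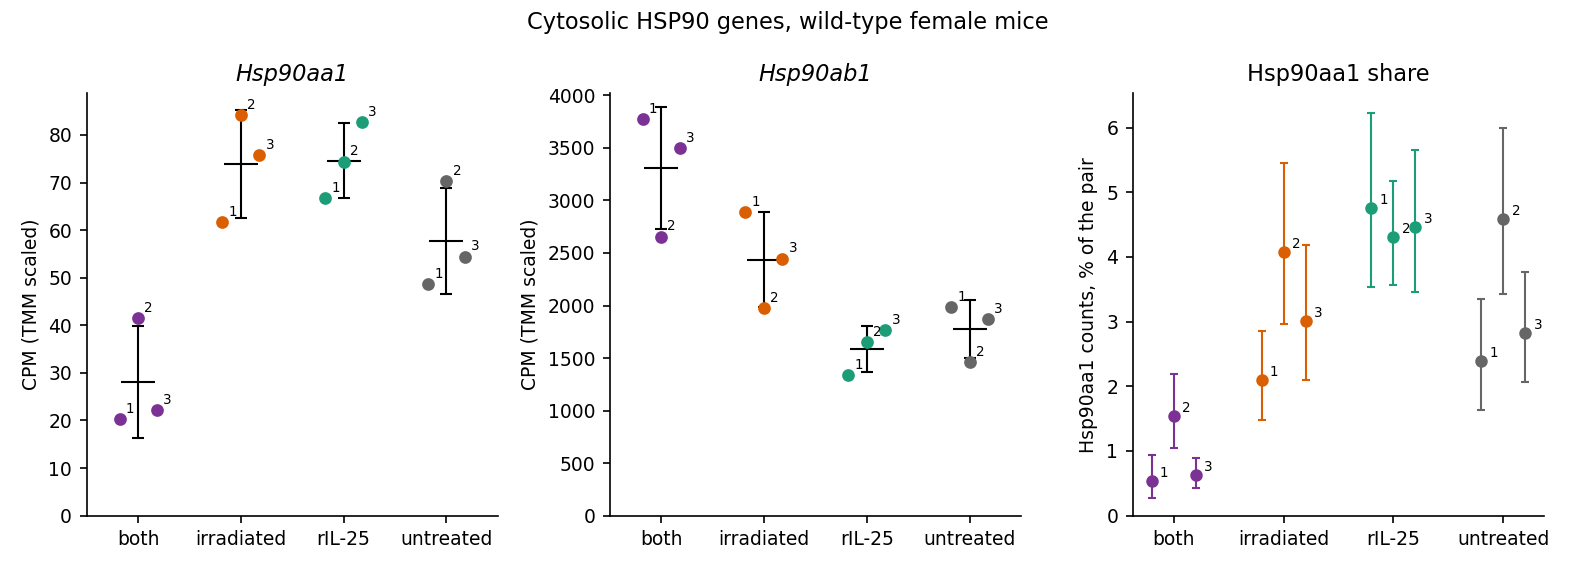
CPM of Hsp90aa1 and Hsp90ab1 per library with mean ± SD (n = 3), and the share of Hsp90aa1 in the summed counts of the pair in percent with exact 95% binomial intervals. The 3 doubly treated libraries are the lowest for Hsp90aa1, at 20.3 to 41.6 CPM, and stand above all rIL-25 and untreated libraries for Hsp90ab1, at 2656 to 3773 CPM.

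The ER form Hsp90b1 was at 380, 288 and 429 CPM after both treatments, 229, 311 and 279 after irradiation, 229, 280 and 258 after rIL-25, and 280, 253 and 258 in untreated mice. The doubly treated libraries were above all untreated and rIL-25 libraries, but edgeR called no comparison (adjusted p = 0.114 against untreated mice and 0.062 against rIL-25). DESeq2 (adjusted p = 0.0499) and limma voom (0.0492) called the difference from rIL-25, and without doubly treated replicate 2 edgeR called it (0.0176) and that from untreated mice (0.0377). Of the other ER genes, Dnajb11, the J-domain partner of Hspa5, averaged 83.8 ± 27.1 CPM after both treatments, 57.1 ± 8.57 after irradiation, 54.3 ± 12.8 after rIL-25 and 52.4 ± 6.73 in untreated mice. Dnajc3, which also restrains the kinase PERK, averaged 55.9 ± 5.25, 31.0 ± 7.47, 30.7 ± 9.50 and 35.7 ± 17.9 CPM in the same order. With all libraries in the fit, edgeR called none of the 8 ER members tested in any comparison of treatments. Without doubly treated replicate 2 it called Dnajb11 after both treatments relative to rIL-25 (adjusted p = 0.0158) and untreated mice (0.0193). Without untreated replicate 1 it called Dnajc3 after both treatments relative to rIL-25 (0.0414).

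Among J-domain genes, which hand clients to HSP70, 2 of the 26 tested were called, both in doubly treated mice relative to rIL-25. Both are Dnajc genes, 11.1% of the 18 tested in that class, against 15.3% of all genes called in that comparison. Dnajc24, which takes part in making diphthamide on elongation factor 2, was at 54.1, 61.0 and 51.6 CPM after both treatments, against 19.1, 40.6 and 25.4 CPM after rIL-25. The rise was 1.87-fold (log2 0.90 ± 0.28, adjusted p = 0.0334), and the groups did not overlap. The call was lost without doubly treated replicate 1 (adjusted p = 0.0532), 2 (0.0657) or 3 (0.0749) or rIL-25 replicate 1 (0.15) or 3 (0.0938), by DESeq2 (0.05), with a minimum count of 30 (0.0537) and with only the 2 groups in the fit (0.053). The interaction of Dnajc24 was not called (adjusted p = 0.126), but limma voom (0.0349) and edgeR without rIL-25 replicate 2 (0.0366) called it.

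Dnajc6, which encodes auxilin and helps HSP70 strip clathrin from vesicles, was at 33.8, 43.0 and 25.8 CPM after both treatments, against 66.8, 57.5 and 52.1 CPM after rIL-25. It fell to 0.57 of the rIL-25 level (log2 −0.81 ± 0.25, adjusted p = 0.0304), with no overlap. The call was lost without doubly treated replicate 1 (adjusted p = 0.058) or 3 (0.198) or rIL-25 replicate 1 (0.116) or 2 (0.0702), by DESeq2 (0.0636) and with only the 2 groups in the fit (0.064). Dnajc6 was at 50.3 to 56.8 CPM after irradiation and 49.6 to 59.3 CPM in untreated mice, so the doubly treated libraries were the 3 lowest of the 12.

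With all libraries in the fit, edgeR called no other J-domain gene in any comparison of treatments. Dnajc11 in doubly treated mice relative to rIL-25 (adjusted p = 0.073) was called without doubly treated replicate 1 (0.0257) or untreated replicate 2 (0.0448). Dnaja2 averaged 15.35 ± 4.12 CPM after both treatments, 25.1 ± 12.1 after irradiation, 15.8 ± 4.11 after rIL-25 and 12.6 ± 2.97 in untreated mice. Dnaja3 averaged 63.4 ± 15.3, 52.6 ± 12.4, 45.3 ± 5.39 and 37.4 ± 2.95 CPM in the same order. Dnajc15, a mitochondrial import factor, averaged 92.1 ± 27.1 CPM after both treatments, 90.7 ± 26.8 after irradiation, 71.8 ± 9.26 after rIL-25 and 52.5 ± 13.6 in untreated mice. Dnajc7, a co-chaperone of both HSP70 and HSP90, averaged 189 ± 28.6, 168 ± 11.0, 173 ± 12.5 and 169 ± 19.1 CPM in the same order. Summed over the class, Dnajb genes reached 284.0 to 346.2, 222.9 to 295.6, 266.4 to 305.1 and 271.0 to 300.6 CPM, and Dnajc genes 1571 to 1734, 1520 to 1682, 1529 to 1602 and 1489 to 1600 CPM.

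Few calls fell among the chaperonin genes. All 8 subunit genes of TRiC, which folds actin and tubulin, were tested, and Cct7 was the 1 called. Its call came in doubly treated mice relative to rIL-25, 12.5% of the subunits against 15.3% of all genes. It was at 769, 981 and 926 CPM after both treatments, 813, 967 and 849 after irradiation, 455, 635 and 532 after rIL-25, and 863, 649 and 641 in untreated mice. The doubly treated libraries were all above the rIL-25 libraries, and untreated replicate 1 stood above the other untreated ones. Cct7 rose 1.65-fold over rIL-25 (log2 0.72 ± 0.19, adjusted p = 0.0116), a call lost without rIL-25 replicate 1 (adjusted p = 0.0795) or doubly treated replicate 3 (0.0511).

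With all libraries in the fit, edgeR called no other subunit gene. In doubly treated mice relative to rIL-25 the 8 log2 fold changes lay between −0.24 and 0.72. At an unadjusted p under 0.05, 4 were higher and 0 lower, as were 1068 and 1208 of all 7482 genes. Cct6a (adjusted p = 0.059) was called by DESeq2 (0.0445) and without doubly treated replicate 2 (0.0294). Cct3 (0.0823) was called by limma voom (0.0472) and without rIL-25 replicate 2 (0.0424). Relative to untreated mice the 8 log2 fold changes lay between 0.04 and 0.39 after irradiation, between −0.41 and 0.12 after rIL-25, and between −0.27 and 0.39 after both treatments. Summed over the 8 genes, TRiC reached 3829 to 4871 CPM after both treatments, 4191 to 4768 after irradiation, 3209 to 3750 after rIL-25 and 3539 to 4140 in untreated mice. The irradiated sums were above all untreated and rIL-25 sums.

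**Figure D4:**
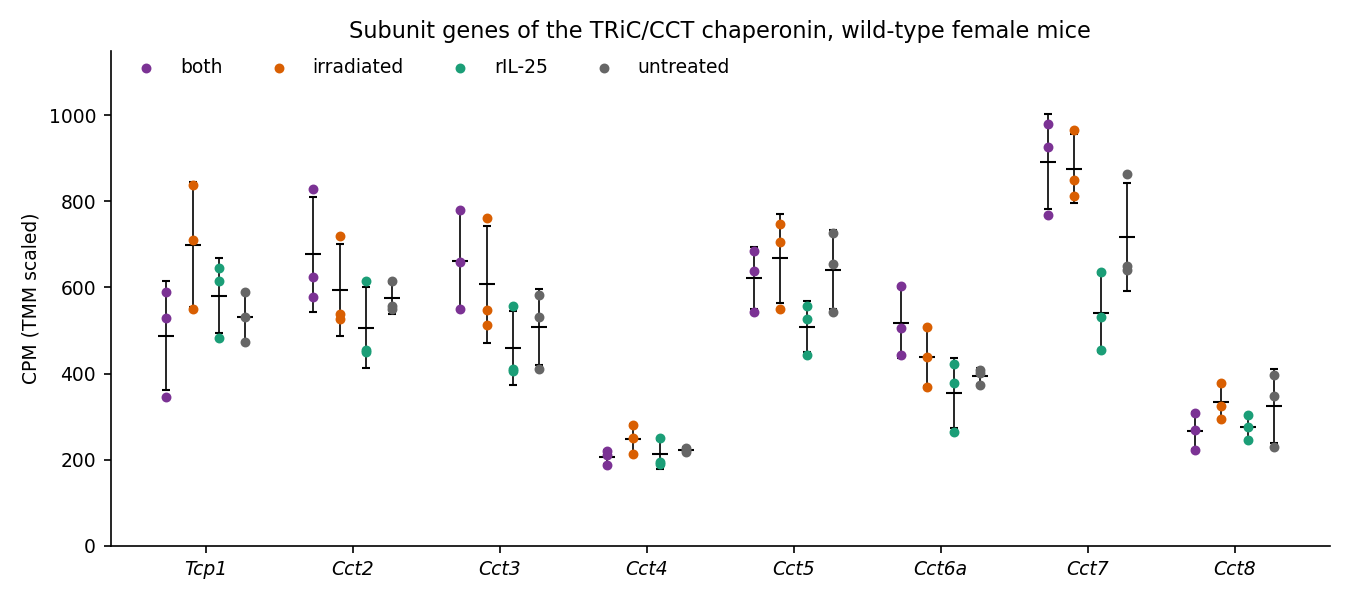
CPM of the 8 TRiC subunit genes in the treatment experiment, 3 libraries per group, with bars for mean ± SD. Groups overlap for most subunits, and for Cct7 the rIL-25 libraries (455 to 635 CPM) lie below the doubly treated (769 to 981) and irradiated (813 to 967) ones.

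The mitochondrial chaperonin genes Hspd1 and Hspe1, which encode the chamber and its lid, lie head to head on chromosome 1 (55077835 to 55088243 and 55088132 to 55091307, overlapping by 112 bases at their starts). Hspd1 was at 419, 244 and 417 CPM after both treatments, 464, 352 and 506 after irradiation, 288, 264 and 262 after rIL-25, and 248, 306 and 265 in untreated mice. Hspe1 was at 461, 288 and 309 CPM, 529, 652 and 511, 529, 496 and 421, and 363, 495 and 312 CPM in the same order of groups. For both genes all irradiated libraries were above all untreated ones.

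Neither reached the threshold after irradiation. Hspd1 was higher by 0.69 ± 0.21 on the log2 scale with an adjusted p of 0.0651, and Hspe1 by 0.53 ± 0.21 with 0.166. Limma voom called both (adjusted p = 0.0136 and 0.0499), and edgeR called Hspd1 without irradiated replicate 2 (0.032) or doubly treated replicate 2 (0.0349) or with only the 2 groups in the fit (0.0473). For Hspe1 after both treatments relative to irradiated mice the difference was −0.68 ± 0.21 (adjusted p = 0.0883). Limma voom called this difference (adjusted p = 0.0489) and the interaction of Hspe1 (0.0147), and without doubly treated replicate 1 edgeR called both (0.0362 and 0.0314), as it did the interaction without untreated replicate 2 (0.0322).

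Co-chaperones and other folding factors are given from whole lists, whose calls were not recomputed with libraries left out. Of 22 tested HSF1 and cytosolic co-chaperone genes, 0 changed after irradiation, 2 rose after both treatments relative to untreated mice, and 3 rose and 2 fell relative to rIL-25. The shares called were 9.09% relative to untreated mice, against 8.93% of all genes, and 22.7% relative to rIL-25, against 15.3% of all genes. St13, a cofactor of HSP70, was at 120 ± 21.8 CPM after both treatments and 59.3 ± 9.06 CPM in untreated mice (adjusted p = 0.00615). Bag1, a nucleotide exchange factor, was at 319 ± 42.1 and 207 ± 12.8 CPM in the same groups (adjusted p = 0.0268). Relative to rIL-25 these rose as well, with Ahsa1, which stimulates HSP90 and is named here after its value was seen.

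The HSP90 co-chaperone gene Chordc1 was the 1 listed co-chaperone with a called interaction (log2 −2.25 ± 0.46, adjusted p = 0.0131). The share with a called interaction was 4.55% of the list, against 2.07% of all genes. Chordc1 averaged 24.2 ± 9.32 CPM after both treatments, 53.4 ± 17.6 after irradiation, 74.3 ± 13.7 after rIL-25 and 32.8 ± 13.2 in untreated mice. Chordc1 fell to 0.338 of the rIL-25 level (adjusted p = 0.00215). Bag4 fell to 0.24 of that level, at 4.14 ± 3.85 CPM after both treatments and 14.7 ± 5.70 CPM after rIL-25 (adjusted p = 0.0282). Its level rests on few counts, since 1 count was worth up to 2.23 CPM in this experiment.

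Of 16 tested genes of ER folding and the unfolded protein response, 0 changed relative to untreated mice in any group, and 5 rose after both treatments relative to rIL-25, 31.2% against 6.51% of all genes higher. Pdia3, a disulfide isomerase, was at 110 ± 38.5 CPM after both treatments and 55.9 ± 7.62 CPM after rIL-25 (adjusted p = 0.0156), and Pdia6 at 369 ± 75.0 and 199 ± 62.5 CPM (adjusted p = 0.0163). Edem1, Creld2 and Pdia4 also rose, the last named after its value was seen. Edem1 was the 1 gene of the list with a called interaction (log2 1.46 ± 0.38, adjusted p = 0.0474). The share with a called interaction was 6.25% of the list, against 2.07% of all genes. Of 6 prefoldin genes, whose product delivers actin and tubulin to TRiC, Pfdn2 rose after both treatments over each of the other 3 groups (adjusted p = 0.0078 to 0.0393). Each time this was 16.7% of the list. Of all genes, 8.93% were called relative to untreated mice, 2.51% relative to irradiated mice and 15.3% relative to rIL-25. Of 9 mitochondrial quality control genes, Timm44 rose over rIL-25 (adjusted p = 0.0352), 11.1% of the list against 15.3% of all genes.

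No chaperone gene was called in Il25 knockout mice. Of 58 members tested, edgeR called 0, against 1.77% of all 8812 genes (1.57% higher and 0.204% lower), and DESeq2 and limma voom also called 0. At an unadjusted p under 0.05, 0 members were higher and 6 were lower, while 7.23% of all genes were higher and 4.52% lower. The median log2 fold change was −0.09 over the members and −0.01 over all genes, with 40 of 58 members below 0, against 4484 of all 8812 genes.

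The inducible HSP70 genes had wide spreads within both genotypes. Hspa1a was at 149, 115, 297 and 80.8 CPM in Il25 knockout replicates 1 to 4, against 295, 584, 184 and 182 CPM in Il25 wild-type mice. Hspa1b was at 177, 160, 288 and 95.5 CPM in Il25 knockout mice, against 307, 674, 217 and 201 CPM in Il25 wild-type mice. The groups overlapped for both, with knockout replicate 3 above 3 wild-type libraries for Hspa1a and above 2 for Hspa1b, and wild-type replicate 2 the highest of all. The log2 fold changes were −0.96 ± 0.37 for Hspa1a (adjusted p = 0.301) and −0.96 ± 0.34 for Hspa1b (adjusted p = 0.242). Without Il25 wild-type replicate 2 they were −0.46 (adjusted p = 0.653) and −0.43 (0.6).

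Hsph1 was at 67.8, 72.3, 111 and 46.7 CPM in Il25 knockout mice, against 89.5, 242, 99.1 and 66.5 CPM in Il25 wild-type mice. Its log2 fold change was −0.75 ± 0.32 (adjusted p = 0.373), and −0.20 without wild-type replicate 2. Dnajb1 was at 143, 117, 183 and 113 CPM in Il25 knockout mice, against 168, 224, 147 and 154 CPM in Il25 wild-type mice (adjusted p = 0.468). Wild-type replicate 2 was the highest library for Hspa1a, Hspa1b, Hsph1, Dnajb1 and Hspb1.

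**Figure D5:**
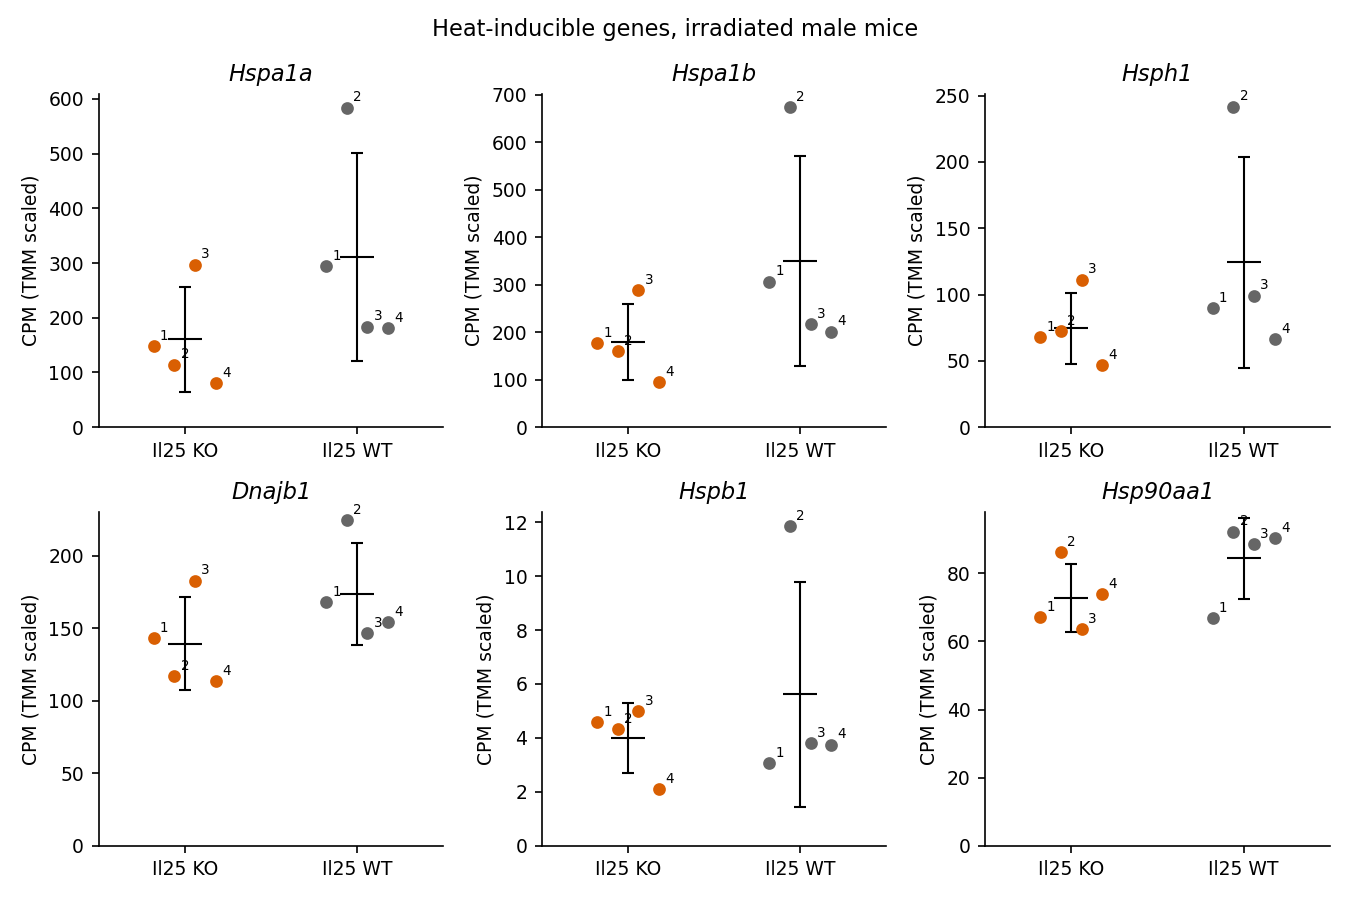
CPM of 6 heat-inducible genes in irradiated male mice, Il25 knockout on the left and Il25 wild type on the right, with replicate numbers and bars for mean ± SD (n = 4). Wild-type replicate 2 is the highest library for Hspa1a (584 CPM), Hspa1b (674 CPM), Hsph1 (242 CPM), Dnajb1 and Hspb1, and the groups overlap for all 6 genes.

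Hspd1 did not overlap between genotypes, at 469, 549, 556 and 404 CPM in Il25 knockout mice, against 605, 617, 591 and 634 CPM in Il25 wild-type mice. The difference was −0.31 ± 0.12 on the log2 scale and was not called (adjusted p = 0.334). Dnajc5, a synaptic vesicle co-chaperone, was at 55.7 to 58.9 CPM in Il25 knockout mice and 61.5 to 85.1 CPM in Il25 wild-type mice, also without overlap (adjusted p = 0.39). Cct2, Dnajc7 and Dnajc21 were likewise lower without overlap and uncalled. How many of all genes lacked overlap was not counted in either experiment. Cct8 averaged 588 ± 89.2 CPM in Il25 knockout mice and 714 ± 53.5 CPM in Il25 wild-type mice (SD, n = 4 each, adjusted p = 0.414).

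The abundant members differed little. Hspa8 averaged 2227 ± 260 CPM in Il25 knockout mice and 2083 ± 113 CPM in Il25 wild-type mice, Hsp90ab1 2587 ± 108 and 2513 ± 203 CPM, and Hsp90aa1 72.7 ± 10 and 84.5 ± 11.9 CPM. The share of Hsp90aa1 in the counts of the cytosolic pair was 2.38% to 3.13% in Il25 knockout mice and 2.6% to 3.89% in Il25 wild-type mice, with exact 95% binomial intervals from 2.01% to 3.53% and from 2.29% to 4.36%. Of the listed co-chaperone, prefoldin, ER folding and mitochondrial quality control genes none was called. Of 16 immediate early genes, Atf3 and Fosb rose in Il25 knockout mice (53.8 ± 5.34 and 104 ± 8.92 CPM, against 26 ± 5.14 and 63.7 ± 5.34 CPM in Il25 wild-type mice, adjusted p = 0.00115 and 0.00277). They were 12.5% of the list, against 1.57% of all genes higher. The list summed to 2350 to 2845 CPM in Il25 knockout mice and 2362 to 2583 CPM in Il25 wild-type mice, and its part in the values of the inducible genes was not tested.

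Members with too few counts to be tested numbered 11 and 7 in the 2 experiments. Among treated and untreated mice they were Dnaja4, Dnajb3, Dnajb5, Dnajb14, Dnajc12, Dnajc16, Dnajc18, Dnajc25, Dnajc27, Hspa13 and Hspb1, and among Il25 knockout and wild-type mice Dnajb3, Dnajb5, Dnajb13, Dnajc18, Dnajc28, Hspa2 and Hspb9. A single count corresponded to 0.676 to 2.23 CPM and 0.205 to 0.525 CPM. Hspb11, outside the chaperone families, averaged 20.8 ± 6.37 CPM after both treatments, 39.0 ± 19.7 after irradiation, 22.5 ± 6.30 after rIL-25 and 19.0 ± 5.86 in untreated mice, and was not called.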

How the data were processed

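Sorted thymic ILC2 were profiled by MARS-seq in 12 treatment and 8 knockout libraries. The authors deposited, for each experiment, a table of raw counts for every gene in every library. Per the submitters' processing notes, bcl2fastq, cutadapt, STAR 2.5.2b, HTSeq and DESeq2 were used with the build mm10; settings and annotation release are not given in the sources used here, nor whether the treatment table counts reads or molecular identifiers. The 40 columns of normalized and transformed values per library were not used.

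The deposited counts were fitted with edgeR 4.0.16 (R 4.3.3). Genes were filtered with filterByExpr (minimum count 10), scaled by TMM (a trimmed mean of M-values) and tested by the quasi-likelihood F-test, with all 12 treatment libraries in 1 fit and the 8 knockout libraries in another. P-values were adjusted by Benjamini-Hochberg across every gene of a comparison. The SE was taken as log2 fold change over √F. The pipeline was tested on simulated counts.

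Named members were a set list of chaperones, the most abundant member of each class, members called, and otherwise the 4 with the smallest p; of each context list at most 4 genes were named by p. The members and lists were chosen with earlier results of these data known, and the ER and mitochondrial groupings after values were seen. Sequences are from RefSeq (GRCm38.p6) and gene positions from GENCODE vM21. No replicate pair of a group differed by as little as sampling noise (chi-square per degree of freedom 2.34 to 14.5).

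Alternatives were DESeq2's size factors, no filter or a minimum count of 30, the replicate number as a block, only the 2 groups compared, DESeq2 1.42.0, limma 3.58.1 voom with quality weights, each library left out, and, added after seeing the data, the summed counts of Hspa1a and Hspa1b.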

Additional observations from a re-analysis of the deposited data

Results flagged for a closer look

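The effect of irradiation on Hsp90aa1 differed with and without rIL-25 by −1.78 on the log2 scale (edgeR's interaction test, adjusted p = 0.0157). Hsp90aa1 was at 20.3 to 41.6 CPM after both treatments, 61.6 to 84.2 after irradiation, 66.8 to 82.6 after rIL-25 and 48.6 to 70.2 in untreated mice.

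In the knockout experiment, 6 libraries stood apart from the other 3 of their group for a member, by Dixon's test over 60 groups of 4 libraries. Chance gives about 1 such library in 20 groups. Among Il25 knockout mice these were replicate 2 for Cct2 (712 CPM, the others 780 to 790) and for Cct7 (697 CPM, the others 781 to 792), and replicate 4 for Cct4 (442 CPM, the others 344 to 354). Among Il25 wild-type mice they were replicate 1 for Hsp90aa1 (66.8 CPM, the others 88.6 to 92.3), and replicate 2 for Hspb1 (11.9 CPM, the others 3.07 to 3.8) and for Dnajc7 (196 CPM, the others 176 to 179).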

How the results depend on the processing

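The count of members called was 0 in every alternative run for rIL-25 over untreated mice and for Il25 knockout over Il25 wild-type mice. For irradiated over untreated mice it was 2, with 4 by limma voom and 0 to 3 with 1 library left out. For both treatments over untreated mice it was 2, with 1 when only the 2 groups compared were fitted and 1 to 6 with 1 library left out. For both treatments over irradiated mice it was 2, with 1 when only the 2 groups were fitted and 0 to 2 with 1 library left out. The alternatives that kept all libraries of these groups ranged from 1 to 3. For both treatments over rIL-25 it was 6, with 2 to 9 with 1 library left out and 5 to 8 in the other alternatives. For the interaction it was 1, with 2 by DESeq2, 4 by limma voom and 0 to 3 with 1 library left out.

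Same-numbered libraries did not all deviate together: their correlations ran from −0.189 to 0.375 in the treatment and from −0.197 to 0.246 in the knockout experiment. The libraries that correlated best with their own number were 5 of 12 and 2 of 8. With the replicate block the interaction count was 2, no other count moved by over 1.5 times, and of the named members Hspa1b in the interaction (adjusted p = 0.00923) was the 1 whose call changed.

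Among single-gene results no direction reversed over the alternatives: 1196 values kept their direction and side of the threshold, 43 lost a call and 36 gained one. Depth was lowest in the treatment experiment, where 1 count was worth up to 2.23 CPM. Members removed by a minimum count of 30 gave no value there.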

Other observations

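Irradiated wild-type mice were present in both experiments, whose tables were normalized separately. Hspa1a was at 182 to 584 CPM in the irradiated male Il25 wild-type mice and 20.1 to 54.8 CPM in the irradiated female mice, and Fos, an immediate early gene named after its values were seen, at 302 to 357 and 6.49 to 35.2 CPM. Sex, experiment and library preparation cannot be told apart, and no difference was tested. Hsph1 overlapped between these mice, at 66.5 to 242 CPM in the males and 50.3 to 123 CPM in the females.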
